A study of Mus musculus with 40 samples.

Results

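Histone genes and genes that supply histones to new chromatin were followed in mouse embryos exposed for 5 h to a DNA-damaging drug. The genes are Dnajc9, Slbp, H4c18, H2az1 and H3f3b, that is 5 of the 6970 genes that could be named on the arrays. They were found as every probe annotated to exactly 1 of these symbols, which gave 12 probes, 11 on array design 1 and 1 on array design 2. The genes were picked with the ratios of this same comparison known, so those ratios are given here as a description. No test supports them.

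Each of the 40 samples was a 2-colour array that compared total RNA of treated embryos with total RNA of control embryos. Treated embryos spent 5 h in culture at 37 °C in the continuous presence of 40 µM 4-hydroperoxycyclophosphamide (4CP). The compound is a pre-activated form of cyclophosphamide, an alkylating drug that crosslinks DNA. Control embryos were cultured at 37 °C without drug. The sources used here do not give strain, stage, sex or the number of embryos per sample. There were 5 replicates on each of 2 array designs, and every replicate was hybridised in both dye orientations on separate slides with 2 readouts per slide, one plain and one marked B, so 4 arrays make up 1 replicate. Whether the replicates were separate cultures is not stated, so the p-values below reflect differences among these samples alone, part of which may be technical.

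The deposited values were ratios of one channel over the other. They hold no level, so no gene can be called expressed or silent, and the embryonic origin of the RNA could not be checked against marker levels. All values below are log2 ratios of 4CP-treated over control embryos, each array centred on its own median, 1 value per replicate, and folds take the unstated base of the logarithm to be 2. In such whole-embryo RNA, fewer cells of a type and less RNA per cell cannot be told apart.

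The numerator of the deposited ratio was not stated. It was read as channel 1, the channel listed first. This direction is likely and not settled. Apart from the numerator, some arrays of one dye orientation ran against each other. The lowest correlation over all probes was −0.31 on array design 1, where 1 of 45 pairs with treated embryos in channel 1 lay under −0.3, and −0.54 on array design 2, where 5 of 45 pairs with treated embryos in channel 2 did. Under the direction used here Ccng1 and Mdm2, which p53 switches on after DNA damage, were higher in 4CP-treated embryos. Ccng1 averaged 2.41 ± 0.31 and 2.90 ± 0.46 on its probes of array design 1 and 1.39 ± 0.40 on array design 2, and Mdm2 averaged 0.89 ± 0.31 and 0.91 ± 0.41 (SD, n = 5). On array design 1 each Ccng1 probe was positive on all 19 arrays with a value. The Mdm2 probes there were positive on 20 of 20 and 19 of 19. If channel 2 was the numerator, every rise in the text is a fall of the same size and every fall a rise.

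A dividing cell has to double its histones while it copies its DNA. Most are made from replication-dependent histone genes, whose mRNAs end in a stem-loop instead of a poly(A) tail and are made and kept mainly in S phase. Slbp is the stem-loop binding protein, which binds that end and is needed to process, export and translate these mRNAs. Variant histones such as H2A.Z, made from H2az1, and H3.3, made from H3f3b, come from polyadenylated mRNAs in all phases of the cycle. Histone chaperones carry the free proteins to chromatin. Dnajc9, known best from the human protein, binds histones H3 and H4 and brings Hsp70 to them through its J domain. The sources used here do not name the primer used to label the RNA, which decides whether tail-less mRNAs are captured.

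The 3 genes that kept one sign in every replicate were Dnajc9, Slbp and H4c18, and the 250 bases before their annotated starts are shown for that reason. The sequences are from RefSeq on the GRCm38.p6 build, 5′ to 3′ on the gene's strand. Dnajc9 is at chr14:20388911-20389160 on the minus strand, Slbp at chr5:33652575-33652824 on the minus strand and H4c18 at chr13:21832198-21832447 on the minus strand. Capitals mark matches to CCAAT, the letters read by the factor NF-Y, or to TATAAA, a form of the TATA box.
Dnajc9: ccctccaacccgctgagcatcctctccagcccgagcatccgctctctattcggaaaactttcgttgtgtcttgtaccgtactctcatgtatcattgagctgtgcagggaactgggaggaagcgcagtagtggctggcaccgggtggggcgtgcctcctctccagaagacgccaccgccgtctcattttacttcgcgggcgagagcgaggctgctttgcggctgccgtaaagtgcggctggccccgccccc
Slbp: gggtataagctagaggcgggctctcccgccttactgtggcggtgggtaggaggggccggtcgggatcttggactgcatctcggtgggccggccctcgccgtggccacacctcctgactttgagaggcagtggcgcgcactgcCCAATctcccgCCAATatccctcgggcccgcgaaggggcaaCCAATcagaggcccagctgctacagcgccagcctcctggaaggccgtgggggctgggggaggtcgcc
H4c18: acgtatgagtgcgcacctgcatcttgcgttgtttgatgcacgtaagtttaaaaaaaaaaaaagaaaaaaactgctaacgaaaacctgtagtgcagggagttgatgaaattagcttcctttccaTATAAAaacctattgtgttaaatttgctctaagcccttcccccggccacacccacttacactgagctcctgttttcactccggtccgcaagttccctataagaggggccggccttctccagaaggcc

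The Slbp window holds CCAAT 3 times, its farthest bases 108, 97 and 67 bases before the start. The H4c18 window holds TATAAA once, 127 to 122 bases before the start, and no CCAAT. The Dnajc9 window holds none of the 4 motifs that were searched on both strands. Those were CCAAT and TATAAA as above, with TTCCCGC and also TTGGCGC as forms of the E2F site. Other forms of the TATA box were not searched, so the TATAAA match of H4c18 does not place its TATA box. For the variants, the H3f3b window held CCAAT 4 times and TATAAA once, 27 to 22 bases before the start. The H2az1 window held CCAAT 2 times and TTGGCGC once, one CCAAT lying inside a stretch shared with TTGGCGC on the other strand. Of 32851 promoters of that length, 33.8% hold CCAAT, 12.4% TATAAA, 3.82% TTCCCGC and 1.97% TTGGCGC. These matches describe letters in a window and do not show binding.

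Of the 12 probes, 3 passed limma's test over all probes at an adjusted p under 0.05. On array design 1 these were 1 probe higher in 4CP-treated embryos, where 0.638% of all 7680 probes were called higher, and 1 probe lower, where 0.013% were called lower and 0.651% either way. Of the 50 probes called on that design, 44 were among the 786 without a value in 1 readout of replicate 4. The probe called higher here, Dnajc9, was also among those 786, so the share over all probes is a poor background for it. Without that readout 443 probes were called lower. The 0.013% is thus a poor background for the probe called lower, H4c18, as well. The single probe of array design 2 was called higher, where 19.8% of 7599 probes were called higher, 8.07% lower and 27.8% either way. Nothing is read from these counts, since the probes were chosen on the same contrast. The median of all probes was 0.0049 on array design 1 and 0.017 on array design 2, and the 5th and 95th percentiles of all probes were −0.21 and 0.34 on the first and −0.16 and 0.32 on the second.

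**Figure D1:**
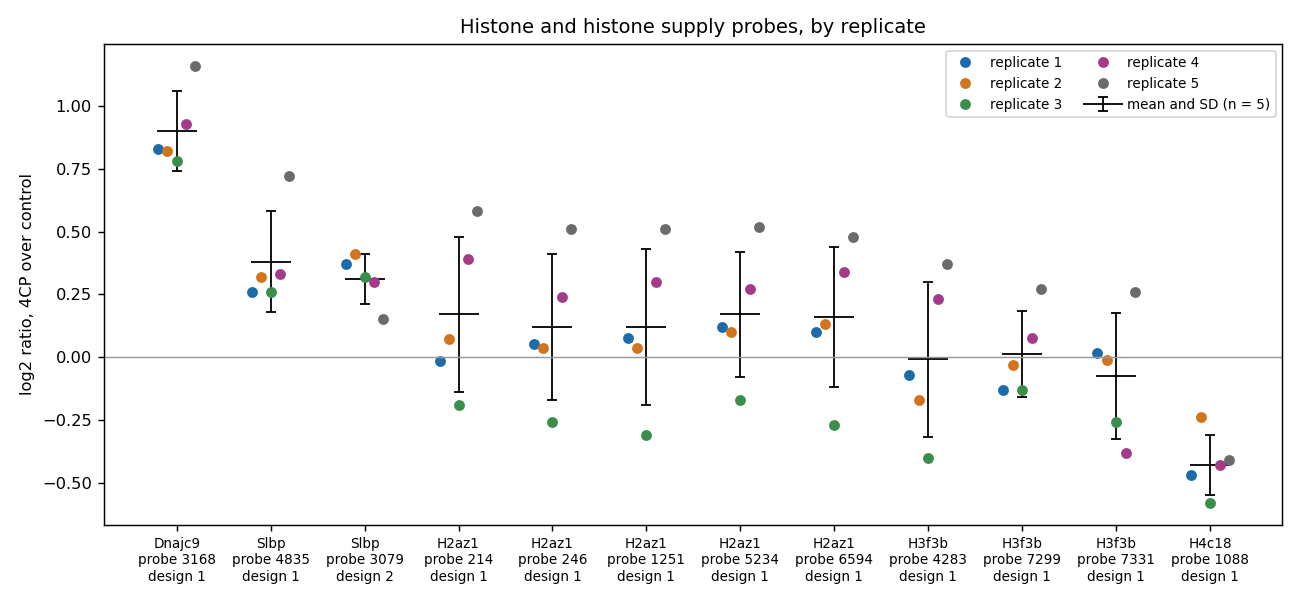
Each point is 1 replicate's log2 ratio of 4CP-treated over control embryos (y axis) for 1 probe (x axis); bars give the mean and SD over 5 replicates. Dnajc9 lies between 0.78 and 1.16 and H4c18 between −0.58 and −0.24, while each H2az1 and H3f3b probe has replicates on both sides of 0.

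Dnajc9 had the largest rise of the 5 genes. Its probe 3168 on array design 1 read 0.83, 0.82, 0.78, 0.93 and 1.16 in replicates 1 to 5. All replicates were high and close together, with a mean of 0.90 ± 0.16 (SD, n = 5), or 1.87-fold higher in 4CP-treated embryos, the 6th highest mean of 7680 probes. The probe had a value on 19 arrays and was positive on all 19, from 0.086 to 1.83 with a median of 0.83. In single orientations it ranged from 0.12 to 1.63. It averaged 0.74 ± 0.63 with treated embryos in channel 1 and 1.07 ± 0.41 with treated embryos in channel 2 (SD, n = 5 each), so the sign did not depend on the dye. Slides numbered in the 2000 series gave a mean of 0.82 and those in the 3000 series 0.96. The plain and B readouts of a slide differed by a median of 0.15 and at most 0.46 for this probe.

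The probes nearest to Dnajc9 over the 5 replicates, of 4748 compared, belonged to Rps27l, a p53-induced relative of a ribosomal protein, and to Rrm2, the small subunit of ribonucleotide reductase, which makes deoxynucleotides for DNA synthesis. The root mean square difference from Dnajc9 was 0.172 for Rps27l and 0.184 and 0.19 for the 2 Rrm2 probes. Rps27l averaged 0.79 ± 0.25 and Rrm2 0.75 ± 0.25 and 0.73 ± 0.22 (SD, n = 5). All 3 also passed the test. Likeness was measured on the replicate values that showed the rise, so it describes size and sign.

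Slbp was measured once on each design and was positive in every replicate of both. Probe 3079 of array design 2 read 0.37, 0.41, 0.32, 0.30 and 0.15 in replicates 1 to 5, a mean of 0.31 ± 0.10 (SD, n = 5), or 1.24-fold higher, ranked 398 of 7599. Replicate 5 was the lowest of them. On array design 1, probe 4835 read 0.26, 0.32, 0.26, 0.33 and 0.72, a mean of 0.38 ± 0.20 (SD, n = 5), or 1.30-fold higher. There replicate 5 stood apart on the high side and the other 4 lay within 0.26 to 0.33. This probe did not pass the test.

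The size of the Slbp ratio depended on the dye orientation. On array design 2 it was 0.64, 1.16, 0.42, 0.42 and 1.15 in replicates 1 to 5 with treated embryos in channel 1, and 0.09, −0.34, 0.22, 0.19 and −0.85 with treated embryos in channel 2. The means were 0.76 ± 0.37 and −0.14 ± 0.46 (SD, n = 5 each), of opposite sign, and the mean of the unturned ratios, called the dye part here, was 0.45, more than the 0.31 ascribed to treatment. On array design 1 the orientations gave 0.46 ± 0.65 and 0.29 ± 0.41 with a dye part of 0.085. Single arrays were positive on 14 of 20 for array design 2, from −1.03 to 1.43 with a median of 0.34. For array design 1 they were positive on 14 of 19, from −0.58 to 1.43 with a median of 0.28. Slides of the 2000 and 3000 series averaged 0.37 and 0.23 on array design 2 and 0.29 and 0.44 on array design 1.

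**Figure D2:**
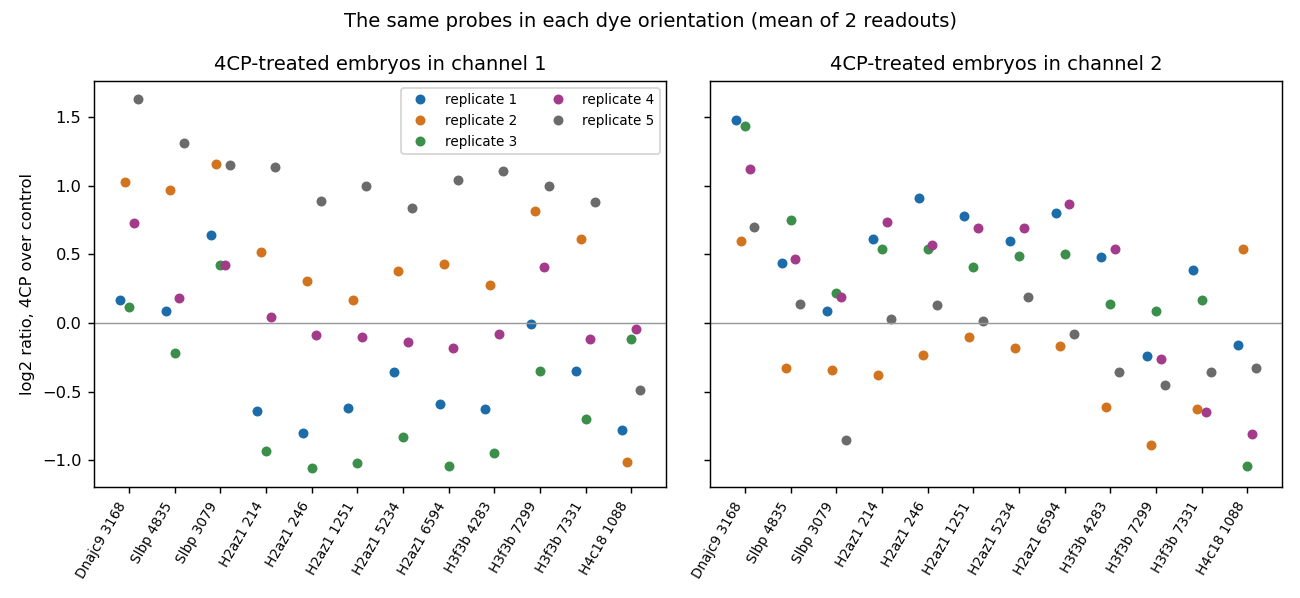
Each point is the mean of both readouts of 1 slide as a log2 ratio of 4CP-treated over control embryos (y axis) for 1 probe (x axis, gene and probe number); the left panel has treated embryos in channel 1 and the right panel in channel 2. Dnajc9 is positive in all 10 values and H4c18 negative in 9 of 10, while Slbp probe 3079 averages 0.76 on the left and −0.14 on the right.

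H4c18, a gene for the core histone H4, was lower in 4CP-treated embryos. Its probe 1088 on array design 1 read −0.47, −0.24, −0.58, −0.43 and −0.41 in replicates 1 to 5, a mean of −0.43 ± 0.12 (SD, n = 5), or 1.34-fold lower. It had the lowest mean of 7680 probes and was the 1 probe called lower on that design. That single call depended on the processing. Without the replicate 4 readout that lacked 786 values, 443 probes were called lower, and with plain readouts alone 61 were. H4c18 was among them both times. All replicates were negative, with replicate 2 nearest to 0. By orientation the values were −0.78, −1.01, −0.12, −0.044 and −0.49 with treated embryos in channel 1, and −0.16, 0.54, −1.04, −0.81 and −0.33 with treated embryos in channel 2. The exception was replicate 2 in channel 2, and 15 of 20 single arrays were negative, within −1.20 to 0.78 with a median of −0.38. Readouts of one slide differed by a median of 0.27 and at most 1.41 for this probe. The orientation means were −0.49 ± 0.42 and −0.36 ± 0.61 (SD, n = 5 each), and the slide series averaged −0.35 for 2000 and −0.47 for 3000. It no longer passed without replicate 1, 2, 3 or 5, with a term for the slide series or within either series, with B readouts or channel 2 alone, or among complete probes only. The H4 genes encode nearly the same protein, and the sequence of the probe was not available. The probe may thus have read several of these genes, and the value is uncertain for this one gene.

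The probes nearest to H4c18 belonged to Nceh1, Ntn1 and Slc28a2, with root mean square differences of 0.19, 0.191 and 0.195. They averaged −0.30 ± 0.13, −0.28 ± 0.10 and −0.29 ± 0.13 (SD, n = 5), and none passed the test. No other histone probe was among them.

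The variant H2az1 had 5 probes on array design 1, with means from 0.12 to 0.17, and none passed. Their mean by replicate was 0.067, 0.076, −0.24, 0.31 and 0.52, or 0.15 ± 0.29 (SD, n = 5), which is 1.11-fold. Replicate 3 was negative and the other 4 positive. Within a replicate the 5 probes spanned 0.095 to 0.15, against 0.76 between replicates, so the probes differed less among themselves than the replicates did. Probe 5234, for example, read 0.12, 0.10, −0.17, 0.27 and 0.52 in replicates 1 to 5, and probe 246 read 0.052, 0.038, −0.26, 0.24 and 0.51. The order of the replicates was thus the same at both ends, with replicate 5 high and replicate 3 low. By orientation the probe means were −0.15 to 0.028 with treated embryos in channel 1 and 0.31 to 0.38 with treated embryos in channel 2, and each probe was positive on 10 to 12 of 19 arrays. The 3000 series averaged 0.16 to 0.26 over the probes, against 0.029 to 0.12 in the 2000 series.

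The H3.3 gene H3f3b had 3 probes on array design 1, with means of −0.0088, 0.012 and −0.076, and none passed. Their mean by replicate was −0.060, −0.069, −0.27, −0.027 and 0.30, or −0.024 ± 0.20 (SD, n = 5). Replicate 5 was positive and the other 4 negative. Probe 4283 read −0.072, −0.17, −0.40, 0.23 and 0.37, probe 7299 read −0.13, −0.031, −0.13, 0.075 and 0.27, and probe 7331 read 0.017, −0.012, −0.26, −0.38 and 0.26 in replicates 1 to 5. Replicate 5 was high on all 3 probes, while replicate 4 was positive on the first pair and negative on probe 7331. Single arrays were positive on 9 or 10 of 20. Here the probes differed by 0.11 to 0.61 within a replicate, and probe 7299 had a dye part of 0.36 against −0.046 and 0.14 for the other two. The second H3.3 gene, H3f3a, was annotated on probes shared with alpha-globin genes and was not used.

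Most member probes of array design 1 had the same highest and lowest replicate. Replicate 5 was the highest for 10 of the 11 probes, the exception being H4c18, and replicate 3 was the lowest for 10 of 11. The 5 H2az1 probes and 3 H3f3b probes make up most of the 11, and the share among all probes was not counted. Outside the group, some probes showed the same order, such as Nap1l1 probe 5459 and Ipo9 probe 4536, and others did not. The medians of the member probes were 0.052, 0.038, −0.26, 0.27 and 0.51 in replicates 1 to 5, where the medians of all probes were −0.013, −0.0027, 0.05, 0.025 and −0.087. Replicates 4 and 5 also had the widest spread over all probes, with SDs of 0.36 and 0.28 against 0.15 to 0.19 in the others. One readout of replicate 4 lacked 786 of 7680 values (10.2%), and 7 of the 11 probes were among them, including Dnajc9, Slbp and every H2az1 probe, so their replicate 4 values rest on 3 arrays. H4c18 and H3f3b had all their values. Leaving that readout out can therefore move the means of H4c18 and H3f3b alone, which were then −0.40 and 0.0074.

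A large share of each replicate's profile followed the dye behaviour of the probes. A smooth function of the dye part accounted for 34% to 81.5% of the variance over probes in the replicates of array design 1 and 35.3% to 61.6% on array design 2. With that trend removed Dnajc9 remained at 0.65 ± 0.092 with all replicates positive. H4c18 stood at −0.25 ± 0.19 with all replicates negative and no longer passed. Slbp was at 0.16 ± 0.17 on array design 1 and 0.025 ± 0.034 on array design 2. H2az1 was at −0.12 ± 0.079 and H3f3b at −0.23 ± 0.12 (SD, n = 5 throughout). H2az1 thus changed sign, while Dnajc9 and H4c18 kept theirs with a mean beyond its SD. H3f3b moved away from a mean near 0, −0.024 ± 0.20, and its probe 7299 turned from 0.012 to −0.16. Without centring, the means of all member probes lay lower. The median of all probes in a replicate was then between −0.38 and −0.10 on array design 1. On array design 2 it was between −0.66 and −0.12, and Slbp there read −0.12. The drop was not the same for probes with and without all their values. H4c18, which had all of them, went from −0.43 to −0.66, and Dnajc9, which lacked 1, from 0.90 to 0.59.

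**Figure D3:**
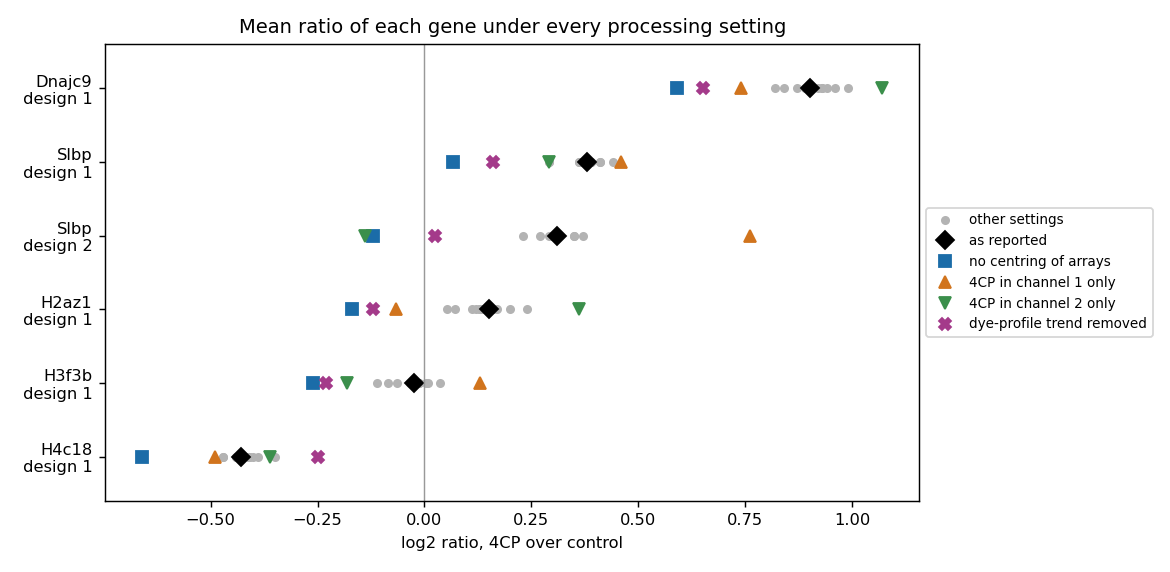
Each symbol is the mean log2 ratio of 4CP-treated over control embryos (x axis) of 1 gene on 1 array design (y axis) under 1 processing setting. Dnajc9 stays at 0.59 or above and H4c18 at −0.25 or below in every setting shown; Slbp on array design 2 lies between −0.14 and 0.76, with its values without centring and in channel 2 alone below 0.

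The rest of the histone supply pathway was covered by 56 other genes on the arrays, 9 of them on both designs. None of the 31 genes on array design 1 passed. The median over their 52 probes was 0.084 against 0.0049 for all probes, and these probes ranged from −0.27 to 0.36. By gene, 21 of 31 had a positive mean over their probes. Of the 34 genes on array design 2, 10 were higher in 4CP-treated embryos and 5 lower. By probe that is 30% of 40 probes higher and 12.5% lower, where 19.8% and 8.07% of all probes were called, and the median was 0.062 against 0.017. The 15 genes that passed there became 7 without replicate 1, 1 with the dye trend removed (lower), and 1 or 0 with treated embryos in channel 1 or channel 2 alone.

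Chaperones made up most of the higher genes. Of 17 chaperone genes on array design 2, 9 were higher and 2 lower, 55% and 10% of their 20 probes, with a median of 0.16. Nap1l1, which carries H2A and H2B, read 0.29, 0.36, 0.52, 0.24 and 0.30 in replicates 1 to 5, a mean of 0.34 ± 0.11 (SD, n = 5; limma adjusted p = 6.91e-05). Its 5 probes on array design 1 averaged 0.25 to 0.35 and did not pass. Npm1, nucleophosmin, a nucleolar histone chaperone, averaged 0.28 ± 0.076 and 0.26 ± 0.13 on its probes (limma adjusted p = 0.000356 and 0.00165). Rbbp4, which binds H3 and H4 in chromatin assembly factor 1 and other complexes, averaged 0.29 ± 0.13 and 0.26 ± 0.081 (limma adjusted p = 0.000699 and 0.000853). Chaf1b, another subunit of that assembly factor, averaged 0.25 ± 0.076 (limma adjusted p = 0.00116). These rises of 1.19-fold to 1.27-fold were positive in all 5 replicates but lay below 0 without centring of arrays. With the dye trend removed, Nap1l1 averaged 0.14, Rbbp4 0.088 and 0.081, Chaf1b 0.085 and Npm1 −0.10 and −0.13, and no supply gene was called higher.

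The lower chaperone genes were Cabin1 and Spty2d1, named here after their values were seen because they are few. Cabin1, a partner of the H3.3 chaperone HIRA, averaged −0.18 ± 0.074 (SD, n = 5; limma adjusted p = 0.0167) on array design 2, while its probe on array design 1 averaged 0.30 ± 0.20 and did not pass. Spty2d1, which binds H3 and H4, averaged −0.15 ± 0.087 (SD, n = 5; limma adjusted p = 0.0471) on array design 2. Its probes on array design 1 averaged −0.026 ± 0.17 and −0.26 ± 0.18, and neither passed.

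Among genes that process histone mRNA, 1 of 7 on array design 2 was higher and 1 lower. That is 12.5% of their 8 probes in each direction, where 19.8% of all probes were called higher and 8.07% lower. Srrt, a partner of the nuclear cap-binding complex, averaged 0.23 ± 0.12 (limma adjusted p = 0.00373) and 0.20 ± 0.12 on array design 1, where it did not pass (limma adjusted p = 0.066). On array design 1 Srrt averaged 0.68 ± 0.20 with treated embryos in channel 1 and −0.28 ± 0.36 in channel 2 (SD, n = 5 each). Its dye part there, 0.48, was more than the 0.20 ascribed to treatment. Mif4gd, which links Slbp to translation, averaged −0.16 ± 0.075 (limma adjusted p = 0.0282). Among the variants, Cenpa, the H3 variant of centromeres, was lower on 1 of its 2 probes, at −0.23 ± 0.084 (limma adjusted p = 0.00246), and the other averaged −0.020 ± 0.087. Of the 7 genes for exchange of H2A.Z on array design 2, Ino80, the ATPase of a nucleosome remodelling complex, was lower at −0.18 ± 0.10 (SD, n = 5; limma adjusted p = 0.0207).

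Other replication-dependent histones were nearly absent from the arrays. H2ac24 on array design 1 averaged −0.060 ± 0.043 and was negative in all 5 replicates. H2ac8 on array design 2 averaged 0.11 ± 0.17 (SD, n = 5). Both encode H2A, and neither passed (limma adjusted p = 0.417 and 0.177). Beside H4c18, then, 2 genes of its class were measured and neither passed in either direction.

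**Figure D4:**
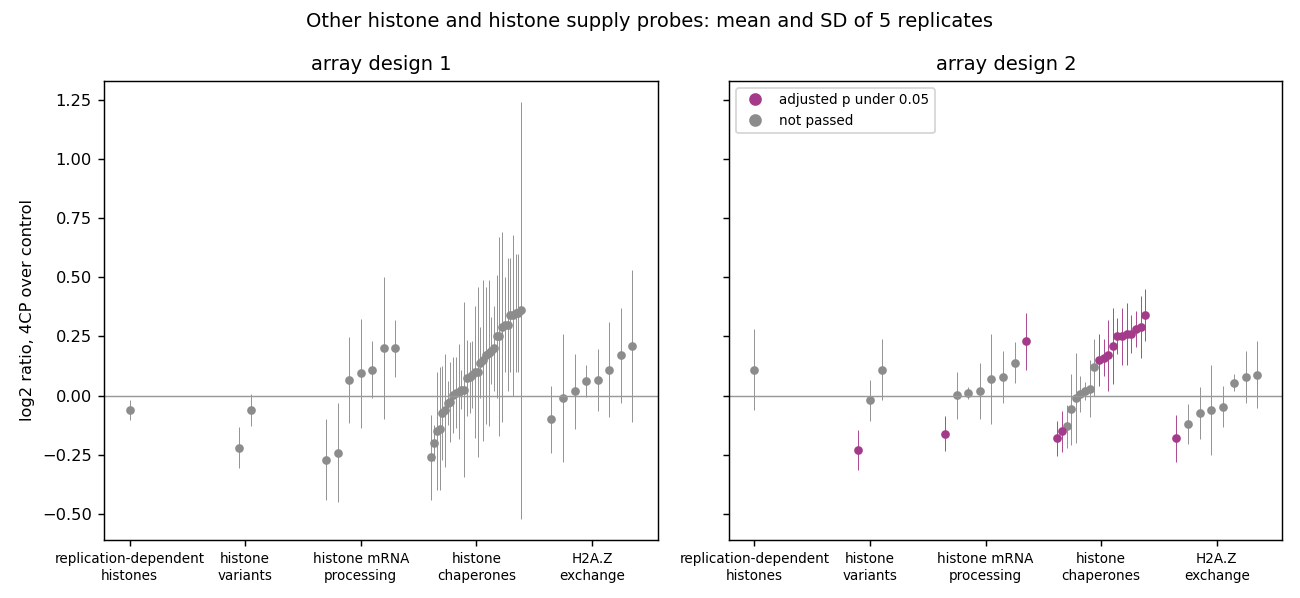
Each point is 1 probe's mean log2 ratio of 4CP-treated over control embryos (y axis) with its SD over 5 replicates, grouped by role (x axis), for array design 1 on the left and array design 2 on the right. Coloured probes passed limma's test: none on the left, and on the right 12 higher and 5 lower, with 11 of the 12 among the chaperones.

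Gene lists outside the pathway give the setting of these values. The medians and ranges of a list were taken over its probes. Over all probes, 0.638% were called higher and 0.013% lower on array design 1, and 19.8% and 8.07% on array design 2. With the member genes left out, S-phase genes had 3 of 24 higher on array design 1, with a median of 0.23, while 9 of 14 were higher and 1 lower on array design 2, with a median of 0.22. By probe that is 14.3% called higher on the first design, and 60% higher with 6.67% lower on the second. Genes of G2 and mitosis had 0 of 18 passing on array design 1, while on array design 2 they had 5 of 17 higher and 3 lower, or 27.8% and 16.7% of their probes. Targets of p53 had 4 of 7 higher on array design 1 and 6 of 8 on array design 2, with medians of 0.84 and 0.32, or 60% and 66.7% of their probes. Of markers for other cells, erythroid genes had 0 of 2 passing on array design 1, with a median of 0.093, and 3 of 6 higher on array design 2, with a median of 0.50 and a range of −0.016 to 0.63, or 63.6% of their probes. Visceral endoderm genes had 0 of 5 passing on array design 1, and placenta and decidua genes 0 of 3 on array design 1, and on array design 2 they had 1 of 2 higher and 1 lower. The part of erythroid RNA in the histone ratios was not tested.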

How the data were processed

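RNA of 4CP-treated and control mouse embryos was compared on 40 two-colour arrays (20 per array design). The authors deposited a log2 ratio per spot, channel against channel; base 2 is an assumption, and the sources used here do not state scanner, background correction or normalization. Per the labels, titles give the replicate, array design and slide, and source names give each channel's RNA. What the B mark on the second readout of a slide means is not stated.

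Each array was centred on its median and spots with one accession were averaged (7680 and 7599 probes left). Readouts were averaged within an orientation, and the turned ratios of both orientations gave 1 value per replicate, their unturned mean the dye part. For each design, limma 3.58.1 (R 4.3.3) tested every probe against 0 (two-sided, at least 3 replicates, Benjamini-Hochberg over all probes, threshold 0.05). The dye trend was a smooth function of 3 leading components of the dye parts (mgcv 1.9.3). The scripts were tested on simulated data. Names came from the platform annotation: 4749 and 4935 probes had 1 symbol, 227 and 275 several, 2704 and 2470 none, and 4712 and 4884 matched the GRCm38.p6 gene table.

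The genes, lists and tests were chosen with earlier results of these data known. Named are every member probe, up to 4 genes per supply list with the smallest p among those that passed, or the 1 with the smallest p, the 3 nearest probes to Dnajc9 and H4c18, and Ccng1 and Mdm2. Cabin1, Spty2d1 and Ipo9 were named outside this rule, after their values were seen. Arrays of one replicate number share an RNA pair by label and count once. The precision is limited by the 5 replicates of each design. Alternatives were centring, scaling, readouts, orientations, the failing readout, slide series, missing values, threshold, test, trend, block and left-out replicates.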

Additional observations from a re-analysis of the deposited data

Results flagged for a closer look

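Slbp on array design 1 stood out because 1 replicate lay far from the rest. Replicate 5 read 0.72 in the log2 ratio of 4CP-treated over control embryos, the nearest other replicate 0.33 and the lowest 0.26, so the gap took 0.863 of the range against a critical value of 0.71 for 5 samples. Without replicate 5 the mean was 0.29, against 0.38 with it. On array design 2 replicate 5 was instead the lowest for Slbp, at 0.15. Of 35 gene or probe profiles checked, 1 was picked out, and chance picks about 1 in 20.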

How the results depend on the processing

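Each setting was changed alone. Probes passing on array design 1 numbered 50, against 4615 without centring, 345 with arrays scaled, 501 with plain and 3 with B readouts, 2324 and 1108 with treated embryos in channel 1 or channel 2 alone, 1224 without the failing readout, 12 with a slide-series term, 3 with slide series 3000 alone, 0 with only complete probes, 5 at an adjusted p under 0.01, and 7 to 82 leaving out a replicate. On array design 2 they numbered 2114, against 6655 without centring, 1331 scaled, 1076 with plain readouts, 1190 and 117 in channel 1 or channel 2 alone, 811 with slide series 3000, 382 with the trend removed, 1043 at the stricter threshold, 869 with an ordinary one-sample test, and 1013 to 2637 leaving out a replicate (1013 without replicate 1). Supply genes passing on array design 1 numbered 0, against 12 without centring, 3 scaled, 2 with plain readouts, 9 and 6 in channel 1 or channel 2, and 5 without the failing readout. On array design 2 they numbered 15, against 28, all lower, without centring, 7 with plain readouts, 1 and 0 in channel 1 or channel 2, 9 and 8 with slide series 2000 or 3000, 1 with the trend removed, 7 at the stricter threshold, 6 with the one-sample test, and 7 to 14 leaving out a replicate (7 without replicate 1). With single arrays and the replicate number as a block, 569 probes passed on array design 1; the block correlations were −0.0886 and −0.158, and no member mean moved beyond its SD. Without centring H4c18 read −0.66, H2az1 −0.17, H3f3b −0.26, Slbp 0.066 and −0.12, and Dnajc9 0.59. Dnajc9 read 0.74 and 1.07, and Slbp on array design 2 0.76 and −0.14, in channel 1 and channel 2 alone. With the trend removed H4c18 read −0.25, H3f3b −0.23, Slbp 0.16 and 0.025, and Dnajc9 0.65. On array design 2 without centring, Srrt turned to −0.20, Nap1l1 to −0.086, Rbbp4 to −0.17 and −0.14, Chaf1b to −0.18 and Npm1 to −0.15 and −0.17. Npm1 was −0.036 and −0.24 in channel 1 alone and −0.10 and −0.13 with the trend removed, and Ino80 0.022 in channel 2 alone. Dnajc9 no longer passed with B readouts alone or slide series 3000 alone, nor Slbp on array design 2 without centring, in channel 2 alone, with slide series 3000 alone or with the trend removed. H3f3b passed on 1 probe without centring and on 1 with the trend removed; Slbp on array design 1 passed with arrays scaled, with plain readouts, without the failing readout and with the block. The cause was not tested for any of these changes.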
